A study of Mus musculus with 16 samples.

Results

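The comparison described here is that of spinal cord injury (SCI) with sham surgery in mouse hamstring muscle that had been injected with cardiotoxin (CDTX). It used 7 of the 16 arrays of the series, 3 of the group SCI+CDTX (replicates 1, 3 and 4) and 4 of the group Sham+CDTX, chosen by their labels. An eighth array, SCI+CDTX 2, carries the same treatment label but was left out of the authors' final analysis per the labels. The main counts and the named genes were also read with it, and genes whose result did not hold then are listed near the end. All mice of both groups were female, received CDTX into the muscle and were sampled 2 days after surgery. The SCI was made between the vertebrae T12-13, and the sham group had surgery without it. Neither strain nor age was given in the sources used here. Arrays of SCI+Saline and Sham+Saline, 4 each, entered the same model and gave the surgery effect without the toxin, in what is called saline muscle below. The muscle was taken whole, so RNA of fibres, infiltrating leukocytes, vessels, nerve, fat and any node tissue was measured together, and fewer cells of a type cannot be told apart from less RNA per cell.

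Cardiotoxin lyses muscle fibres and sets off a wave of neutrophils and then macrophages, after which satellite cells rebuild the fibres. A lesion of the spinal cord cuts the descending drive to the limb muscles, unloads and partly denervates them, raises circulating glucocorticoids and weakens immune responses. Bone that forms in muscle after such a lesion is called neurogenic heterotopic ossification, and in this mouse model it needs both the nerve lesion and the muscle injury. Interleukin 1 and oncostatin M, cytokines of myeloid cells, are among the signals studied in this setting.

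Expression was read on an Illumina BeadChip, whose probes are oligonucleotides of 50 bases. Levels are log2 normalized intensities, and a difference is the mean of SCI+CDTX minus that of Sham+CDTX in log2 units. A probe was called when its Benjamini-Hochberg adjusted p from limma was under 0.05, and all adjusted p-values below are limma's. A gene is said to have risen or fallen only when each of its kept probes was called in that direction. Between 13122 and 13595 probes were detected on each of the 7 arrays. Correlations between arrays over probes ran from 0.984 to 0.992 within the groups and from 0.941 to 0.961 between them. Surgery and slide coincide in this series: all SCI arrays lay on one slide and all sham arrays on another. Effects of surgery and of slide therefore cannot be told apart by any fit. The labels do not say whether replicates were separate mice, so p-values measure the spread between these arrays. The tissue label held: 5 of 5 muscle fibre markers were detected on all 7 arrays, with a mean log2 level over the 5 markers of 13.59 to 13.87 in the SCI+CDTX arrays and of 13.69 to 13.89 in the Sham+CDTX arrays.

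Of 14763 probes tested, 4393 were called (29.8%), 2194 higher in SCI+CDTX (14.9%) and 2199 lower (14.9%). The arrays of both groups did not overlap at 6284 probes (42.6%), and 4181 of these were called. By genes, 1367 of 10952 rose at each kept probe (12.5%) and 1329 fell (12.1%). Among the 2740 genes read by more than 1 kept probe, 96 rose at each of them (3.5%) and 161 fell (5.88%). In 71 further genes, called probes pointed in opposite directions. Another 1089 genes had called and uncalled probes side by side. Between SCI+Saline and Sham+Saline, 29.5% of kept probes were called. Of the genes that moved at each of several probes in CDTX muscle, 81 did so too at each probe in saline muscle with the same sign, and 8 with the opposite sign.

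The actin gene Actb, a cytoskeletal gene common to all cells, shows why agreement between probes was asked for. Its probes read different stretches of one transcript. The first 30 bases of 4 of them follow, as deposited, and the capitals mark the stretch that the first 2 have in common.
ILMN_2846865: GGTGAAGGCGACAGCAGTTGGTTGGAGCAa
ILMN_2588055: cGGTGAAGGCGACAGCAGTTGGTTGGAGCA
ILMN_2698799: ccggcccctccatcgtgcaccgcaagtgct
ILMN_2617433: tccacccgcgagcacagcttctttgcagct
At ILMN_2846865 the levels were 8.21, 7.66 and 8.18 in SCI+CDTX and 4.35, 4.39, 4.34 and 4.52 in Sham+CDTX. ILMN_2588055 gave 8.17, 7.63 and 7.89 in SCI+CDTX and 4.37, 4.36, 4.39 and 4.44 in Sham+CDTX, where no array detected it. The groups did not overlap at either probe. The difference was 3.62 at the first, and the signal of the second probe was at least 10.4-fold higher in SCI+CDTX. The probes overlap in sequence and are not 2 independent readings. The brightest Actb probe, ILMN_2698799, gave 13.89, 13.60 and 13.83 against 13.64, 13.67, 13.64 and 13.57, a difference of 0.14 (adjusted p = 0.473). The probe ILMN_2617433 differed by -0.52 (adjusted p = 0.205). The remaining probe of the 5, ILMN_1377923, was called higher by 0.55 (adjusted p = 0.0438). SCI+CDTX 2 stood at 4.53 at ILMN_2846865, among the sham arrays.

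The case of Actb was not an isolated one. For gene pairs of probes that have no run of 15 bases in common, the brighter probe was called in 962 genes, and the second probe had the same sign in 68.1% of them. In saline muscle the same share was 85.3% of 844 genes. Where the probes did share such a run, the share was 96.8% of 126 genes in CDTX muscle and 95.3% of 106 in saline muscle. The scatter of the differences at 2 probes of a gene shows this as a cloud that spreads away from the diagonal in CDTX muscle more than in saline muscle. Distance along the transcript record went with it. Neighbouring probes whose starts lay 0 to 9 bases apart differed in their log2 fold change with an SD of 0.175 (177 pairs), those 50 to 199 bases apart with 0.541 (622 pairs), and those 1000 or more apart with 0.672 (679 pairs). The rise with distance was not steady, at 0.662 for 200 to 499 bases and 0.567 for 500 to 999. In saline muscle the SDs were 0.25 at 0 to 9 bases, 0.36 at 50 to 199 and 0.525 at 1000 or more.

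**Figure D1:**
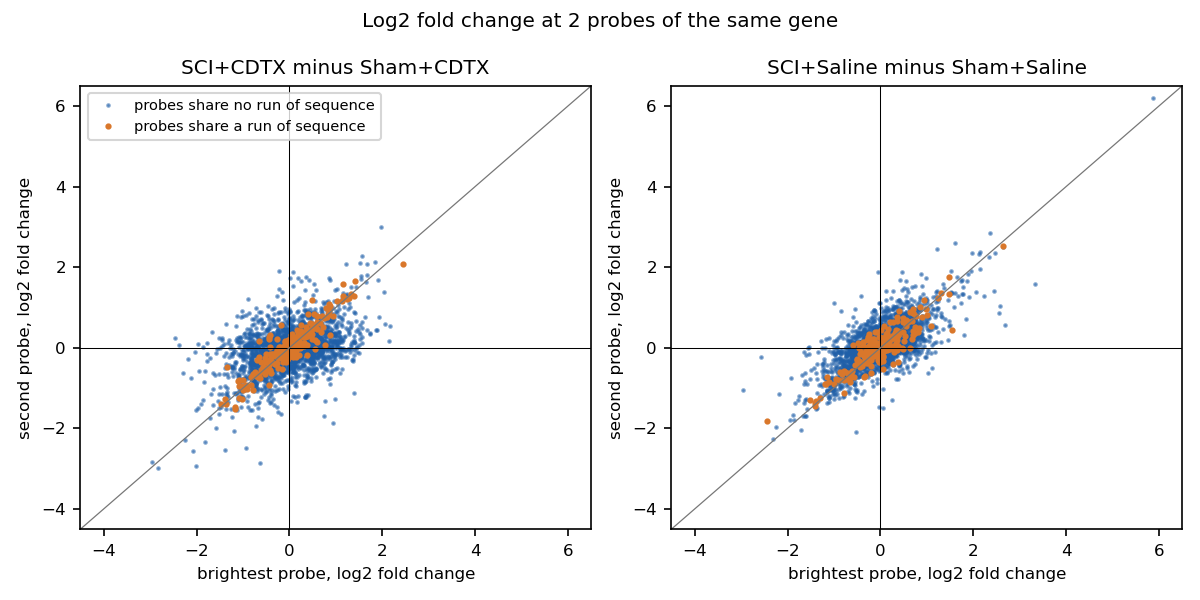
Log2 fold change at the brightest kept probe of a gene (horizontal axis) against that at its second brightest (vertical axis), in CDTX muscle (left) and saline muscle (right); orange points are pairs whose probes share a run of sequence. In CDTX muscle many blue points lie off the diagonal, and 68.1% of genes with a called brighter probe had the same sign at the second, against 85.3% in saline muscle.

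**Figure D2:**
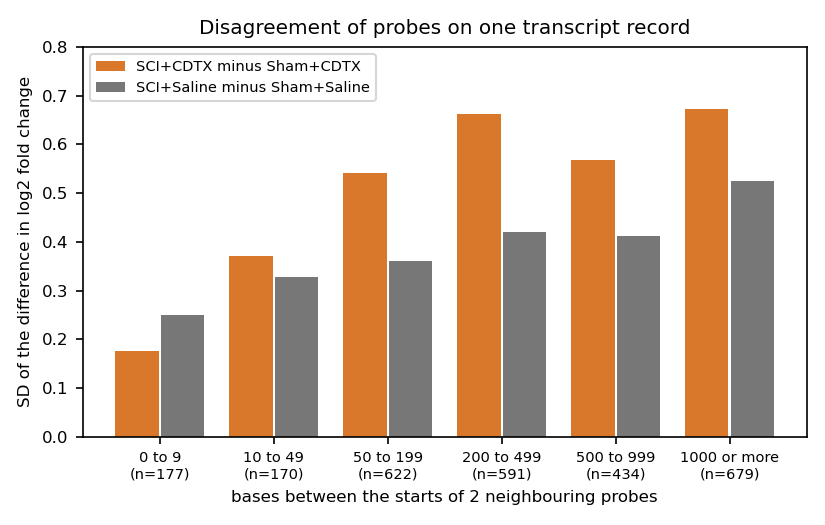
SD of the difference in log2 fold change between 2 neighbouring probes on one transcript record (vertical axis), by the number of bases between their starts (horizontal axis, with the number of pairs), in CDTX muscle (orange) and saline muscle (grey). In CDTX muscle the SD was 0.175 at 0 to 9 bases and 0.672 at 1000 or more.

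A probe difference score was computed for each array as the first principal component of the differences between the 2 brightest probes of 2782 genes, of which it took 33.1% of the variance. The score was 0.347 to 0.391 in Sham+CDTX and -0.119 to -0.0673 in SCI+CDTX 1, 3 and 4. SCI+CDTX 2 scored 0.28, next to the sham arrays, although it lay on the slide of the SCI arrays. The 8 saline arrays scored -0.266 to -0.08. Within CDTX muscle the score thus separated the compared groups apart from 1 array, and a model that holds it as a covariate leans on SCI+CDTX 2 for the surgery effect. In that model over all 16 arrays, 262 of 14955 probes were called (1.75%). Which part of any gene's difference goes with the score and which with surgery was not tested beyond this fit.

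Read on its own, SCI+CDTX 2 split the called genes. Its place was expressed between the Sham+CDTX mean, set to 0, and the mean of SCI+CDTX 1, 3 and 4, set to 1. In the normalization over 16 arrays, the means of the groups without SCI+CDTX 2 lay at least 1 log2 unit apart at 1268 called probes. Of these, 692 had SCI+CDTX 2 below 0.25 (54.6%), 389 from 0.25 to 0.75 (30.7%) and 187 at 0.75 or beyond (14.7%). Over all 4393 called probes, SCI+CDTX 2 lay outside the range of the sham arrays on the side of the difference at 2001 (45.5%). Among genes called at each of several probes, it did so at each probe in 38 of the 96 that rose and in 60 of the 161 that fell. Of these agreed genes, 7 that rose (Ankrd1, Dusp13, Fbxo32, Mustn1, Srxn1, Tekt1 and Tmem38b) and 4 that fell (Gbp3, Ifit2, Slc41a3 and Syngr1) were also called at each probe with the score in the model. Counts below of list genes with SCI+CDTX 2 beyond the sham arrays are to be read beside the 45.5% of all called probes.

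**Figure D3:**
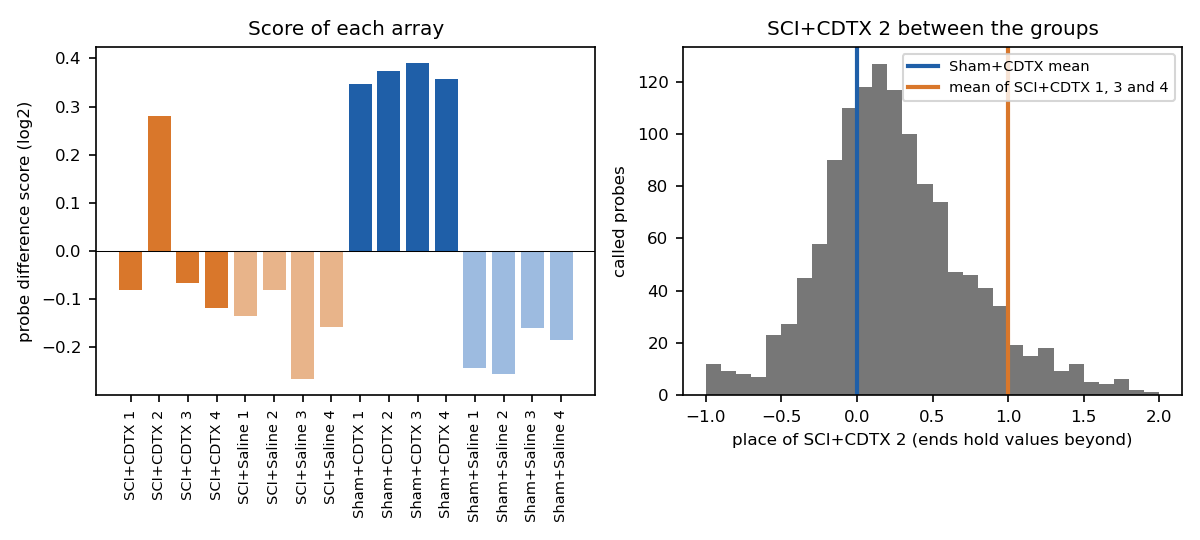
Left, probe difference score of each of the 16 arrays (log2 units); SCI+CDTX 2 stands at 0.28, next to the Sham+CDTX arrays at 0.347 to 0.391. Right, number of called probes with a difference of at least 1 log2 unit in the normalization over 16 arrays, by the place of SCI+CDTX 2 between the Sham+CDTX mean (0) and the mean of the other SCI+CDTX arrays (1); the median place was 0.199.

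The widest difference of all belonged to Glycam1, a mucin-like ligand for L-selectin made by the high endothelial venules of lymph nodes (chromosome 15, cytoband 15qF3 in the deposited annotation). Its levels were 10.31, 10.60 and 10.27 in SCI+CDTX and 4.28, 4.27, 4.26 and 4.21 in Sham+CDTX. The fitted difference was 6.14 ± 0.17 (SE, adjusted p = 1.57e-14). No sham array detected the gene, so the fold is given as a bound, at least 58.8-fold higher in SCI+CDTX. SCI+CDTX 2 read 10.23, with the other SCI+CDTX arrays. In saline muscle the mean level was 4.42 with SCI and 4.21 with sham surgery. Fcmr, the receptor for the constant part of IgM on B cells, was 7.09, 7.50 and 7.28 against 4.23, 4.20, 4.36 and 4.38, at least 6.84-fold higher, and SCI+CDTX 2 read 6.87. Neither gene's groups overlapped.

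Other genes of lymphocytes and lymph nodes moved the same way. Of 20 such genes measured, 12 rose and 1 fell, beside 12.5% and 12.1% of all genes. Their median difference was 0.74, beside 0.01 over all genes. Cd8b1, a chain of the CD8 co-receptor of T cells, rose by 1.87. Ccl19 and Ccl21a, chemokines of the T cell zone of nodes, rose by 1.70 and 1.35. All 5 T cell markers rose, 4 of them by 0.65 (Lck) to 1.14 (Cd3d), while Cd2, which no sham array detected, was at least 1.5-fold higher. SCI+CDTX 2 lay above the sham arrays for Cd3d and Cd2, but within their range for Cd3e (4.55), Cd3g (4.76) and Lck (5.71). The groups overlapped for Lck, and Cd3e, Cd3g and Cd3d were each detected on 1 of the 4 sham arrays. With the score in the model no T cell marker was called (adjusted p from 0.462 for Lck to 0.991 for Cd3e). The mean log2 level of the 5 T cell markers was 5.184 to 5.637 in SCI+CDTX and 4.489 to 4.719 in Sham+CDTX. Cd79b, a chain of the B cell receptor, was higher at both probes (1.31 and 1.02), with Sham+CDTX 2 the lowest array at the first. It was not called without SCI+CDTX 1, SCI+CDTX 3 or Sham+CDTX 2. The B cell gene Ms4a1 was not detected on any of the 7 arrays. Cd74, the invariant chain of MHC class II that macrophages and B cells make, fell at both probes (-1.03 and -0.95). SCI+CDTX 2 lay beyond the sham arrays for 9 of the 12 genes that rose, and 3 of the 12 were also called with the score in the model. Of 5 fat cell markers, 3 rose, Adipoq by 1.07, Cfd by 0.86 and Lep by 1.08. SCI+CDTX 2 lay above the sham arrays for Adipoq and Cfd, but for Lep it read 6.92, within their range (6.08 to 6.96). Lep was called lower in saline muscle (-1.44, adjusted p = 0.000729) and differed by -0.11 with the score in the model (adjusted p = 0.952). Plin1 was not called (0.54, adjusted p = 0.0631) and Fabp4 was not detected on any of the 7 arrays. The mean log2 level of the 5 was 8.076 to 8.238 against 7.144 to 7.709. The amount of node or fat tissue in the samples was not measured, and its part in these differences was not tested.

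**Figure D4:**
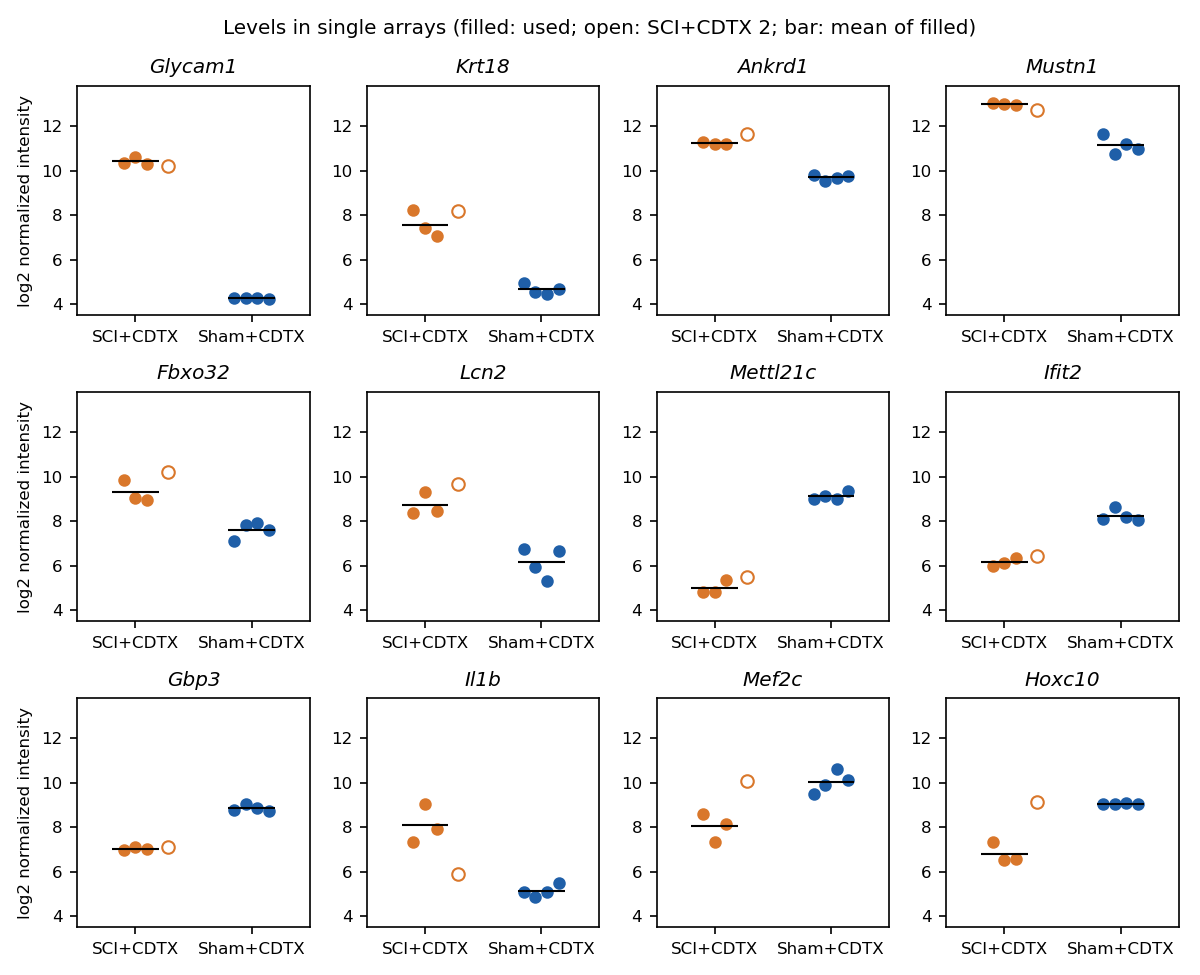
Log2 normalized intensity of the brightest kept probe of 12 genes in each CDTX array; filled points are the arrays compared, open points SCI+CDTX 2, all from the normalization over 16 arrays, and bars are means of the filled points. SCI+CDTX 2 sits with the other SCI+CDTX arrays for Glycam1, Krt18, Mettl21c and Gbp3, and with the sham arrays for Mef2c and Hoxc10.

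Genes of neutrophils, the first leukocytes to enter damaged muscle, were higher in SCI+CDTX in part. Of 22 measured, 7 rose, beside 12.5% of all genes, and 15 were not called. The median difference was 0.71, or 0.625 with the 5 genes undetected in 1 group set to their bound. Lcn2, an iron-binding protein of neutrophil granules that stressed tissues also make, was 8.31, 9.29 and 8.42 against 6.70, 5.91, 5.30 and 6.61, a rise of 2.54 ± 0.59 (SE, adjusted p = 0.00306), and SCI+CDTX 2 read 9.65. Slpi, an inhibitor of neutrophil elastase, rose by 2.36, Fpr2, a receptor for formylated peptides, by 2.04, and Hdc, which makes histamine, by 1.25. Fpr2 and Hdc were no longer called without SCI+CDTX 3 or without SCI+CDTX 4, nor with SCI+CDTX 2 added (1.56 and 0.93).

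The neutrophil alarmins S100a8 and S100a9 did not pass the test although their groups did not overlap. S100a8 was 10.99, 11.71 and 11.19 in SCI+CDTX and 8.01, 6.94, 8.25 and 8.76 in Sham+CDTX, a difference of 3.31 ± 1.26 (SE, adjusted p = 0.0553). S100a9 was 9.35, 10.28 and 9.61 against 6.37, 5.14, 6.63 and 6.88, a difference of 3.49 ± 1.39 (SE, adjusted p = 0.0661). In a fit of the 7 CDTX arrays alone, which leaves out the spread of the saline arrays, both were called, at 3.09 and 3.35. The neutrophil markers Csf3r and Retnlg were not called (brightest probe of Csf3r -0.16, Retnlg -0.42), and Cxcr2 was not detected on any of the 7 arrays. The mean log2 level of the 5 neutrophil markers was 7.643 to 8.162 in SCI+CDTX and 6.204 to 6.78 in Sham+CDTX.

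Genes of the interleukin 1 system rose in 5 of 21 cases, beside 12.5% of all genes, at a median of 0.08. Il1b, the secreted cytokine, was 7.30, 9.01 and 7.87 in SCI+CDTX and 5.04, 4.83, 5.06 and 5.46 in Sham+CDTX, a rise of 2.96 ± 0.30 (SE, adjusted p = 1.25e-06). SCI+CDTX 2 read 5.92, above the sham arrays but far below the other SCI+CDTX arrays. Its receptor antagonist Il1rn rose by 2.09, the decoy receptor Il1r2 by 1.13, the adaptor Myd88 by 0.93 and the inhibitory kinase Irak3 by 0.53. SCI+CDTX 2 lay above the sham arrays for 3 of the 5 genes that rose, and beyond them at 45.5% of all called probes. For Myd88 it read 8.98, below all sham arrays (9.49 to 9.73), and with it added Myd88 was not called (0.55). In saline muscle none of these 5 genes was called, and the surgery effects in CDTX and saline muscle differed for Il1b (adjusted p = 0.000152), Il1rn (adjusted p = 1.52e-05), Il1r2 (adjusted p = 0.014) and Myd88 (adjusted p = 0.0471). None of the 5 was called with the score in the model, where Il1b differed by 0.77 (adjusted p = 0.606) and Myd88 turned to -0.60 (adjusted p = 0.495).

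Oncostatin M and the genes of the gp130 and STAT3 pathway were mixed. Of 26, 7 were higher and 2 lower, beside 12.5% and 12.1% of all genes, at a median of 0.13. Osm was 5.88, 6.54 and 6.77 against 5.5, 5.18, 5.17 and 5.24, a rise of 1.12 ± 0.24 (SE, adjusted p = 0.00146), and the groups did not overlap. SCI+CDTX 2 read 5.19, below the sham arrays, and with it Osm was not called (0.82). With the score in the model Osm differed by -0.08 (adjusted p = 0.967). Its receptor Osmr differed by 0.12 (adjusted p = 0.742), while Il6st, the gp130 chain that receptors of this family have in common, rose by 0.64. Of the STAT3 targets, the feedback inhibitor Socs3 rose by 1.91, the secreted glycoprotein Lrg1 by 1.79 and the protease inhibitor Serpina3n by 2.66. Serpina3n was 11.23, 11.61 and 11.55 against 9.32, 8.48, 8.40 and 9.03, and SCI+CDTX 2 read 10.79, on the SCI side. It rose about as much in saline muscle, by 2.45. Socs2, a feedback inhibitor of growth hormone signalling, fell by 1.22, and SCI+CDTX 2 read 8.28, within the sham range.

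Chemokines rose in 7 of 23 cases, beside 12.5% of all genes, and the receptor Cxcr4 fell by 1.44. The median was 0.54, but 0.0391 when the brightest probe of each gene was chosen on the 7 compared arrays, which changed the probe of 1 gene. Cxcl1, a neutrophil attractant, was 7.04, 8.57 and 8.02 against 5.61, 5.71, 5.87 and 5.86, a rise of 2.11. Ccl2, which draws monocytes, rose by 1.36. Cxcl2, of the same kind as Cxcl1, was not detected in Sham+CDTX and was at least 1.95-fold higher. Cxcl13, the chemokine of B cell follicles, was 6.51, 6.72 and 6.89 against 4.50, 4.97, 4.86 and 5.06, a rise of 1.86, and was the highest in SCI+CDTX 2 at 7.31. Cxcl13 and Ccl19 were the 2 of the 7 also called with the score in the model.

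Monocyte and macrophage genes had 4 of 28 higher and 3 lower, at a median of -0.13. These counts lay near the share over all genes (12.5% higher and 12.1% lower). Cd14, the co-receptor for endotoxin, rose by 1.85, Cd163, the haemoglobin scavenger receptor, by 1.75, and Arg1, an arginase of wound macrophages, by 1.74. Cx3cr1, the fractalkine receptor of patrolling monocytes, was 4.80, 4.53 and 4.43 against 6.25, 6.04, 7.05 and 6.02 and fell by 1.75. Ctss, a lysosomal protease, and Mrc1, a mannose receptor, fell (-1.25 and -1.02). Arg1 was no longer called without SCI+CDTX 3, SCI+CDTX 4, Sham+CDTX 1, Sham+CDTX 2 or Sham+CDTX 4, or with SCI+CDTX 2 added (1.41). SCI+CDTX 2 lay beyond the sham arrays for 1 of the 4 genes that rose and 1 of the 3 that fell. For Cd14 it read 7.10, within the sham range. None of these genes was called with the score in the model, where Cd14 differed by 0.097 (adjusted p = 0.968). Of the macrophage markers Cd68, C1qa, Csf1r and Lyz2 no probe was called, and Adgre1 was called lower at 1 of 3 probes. The mean log2 level of these 5 markers was 10.22 to 10.78 against 10.52 to 10.73, so the groups overlapped.

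Interferon-stimulated genes, the antiviral programme that interferon receptors switch on, were lower in SCI+CDTX. Of 27 measured, 11 fell and 1 rose, beside 12.1% and 12.5% of all genes, at a median of -0.51. SCI+CDTX 2 lay below the sham arrays for all 11. Ifit2, whose product binds translation factors and viral RNA, was read by 2 probes that have no run of 15 bases in common. Their first 30 bases are printed to show this.
ILMN_2981169: acaccacaaacttgataattgccatttcct
ILMN_2981167: gacagagtcaagtggcccagtatgagacgg
At the first, Ifit2 was 5.94, 6.08 and 6.33 in SCI+CDTX and 8.04, 8.58, 8.13 and 8.02 in Sham+CDTX. At the second it was 5.68, 5.49 and 6.15 against 8.22, 8.43, 8.60 and 8.09. The differences were -2.08 ± 0.20 (SE, adjusted p = 7.62e-07) and -2.56 ± 0.25 (SE, adjusted p = 9.41e-07). SCI+CDTX 2 read 6.43 and 6.20, near the other SCI+CDTX arrays. In saline muscle the same probes differed by -0.06 and -0.07, and the surgery effects in CDTX and saline muscle differed (adjusted p = 5.63e-05 and 6.63e-05).

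Gbp3, a guanylate-binding protein induced by interferon gamma, was 6.44, 6.58 and 6.4 against 8.78, 8.79, 8.90 and 8.79 at one probe and 6.94, 7.06 and 6.98 against 8.73, 9.0, 8.81 and 8.68 at the other. It fell (-2.34 and -1.81), and in SCI+CDTX 2 it read 7.41 and 7.12. Ifit3, a partner of Ifit2, fell at both probes (-1.42 and -1.64), as did the oligoadenylate synthetase-like gene Oasl2 (-1.02 and -1.22), though Oasl2 was not called without SCI+CDTX 1. Single probes of the ubiquitin-like modifier Isg15 (-1.29), the transcription factor Irf7 (-1.24), the radical-SAM enzyme Rsad2 (-1.14), Stat2 (-0.90), Ifitm3 (-0.82), Gbp2 (-0.64) and Mx2 (-0.63) fell too. The gene that rose was Ifitm1, which was not detected in Sham+CDTX and was at least 1.52-fold higher. Of the 11, Ifit2, Gbp3, Isg15, Stat2 and Gbp2 were also called lower with the score in the model.

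Promoters of interferon-stimulated genes often hold the interferon-stimulated response element, which STAT and IRF factors bind. Its core was searched as GAAANNGAAA on both strands in the 250 bases before each start in the RefSeq promoter table (GRCm38.p6). It was present in 936 of 27025 genes (3.46%) and in 9 of 20 interferon-stimulated genes with a promoter there (45%). Of the 10 that fell and have a promoter there, 6 held it (60%), and of the 10 others 3 did (30%). Among those that fell, Irf7, Oasl2 and Ifitm3 had no match, and neither did Ifit2 at any of its starts. The promoters of 3 that fell are printed with the matched letters in capitals, Ifit3 at chr19:34583279-34583528 on the plus strand, Isg15 at chr4:156200819-156201068 on the minus strand and Gbp3, the first of 2 starts, at chr3:142559794-142560043 on the plus strand.
Ifit3: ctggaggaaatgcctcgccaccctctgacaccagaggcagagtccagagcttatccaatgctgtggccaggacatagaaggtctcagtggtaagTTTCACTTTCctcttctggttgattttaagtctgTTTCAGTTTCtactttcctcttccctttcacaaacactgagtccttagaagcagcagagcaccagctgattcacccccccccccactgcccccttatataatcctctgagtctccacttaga
Isg15: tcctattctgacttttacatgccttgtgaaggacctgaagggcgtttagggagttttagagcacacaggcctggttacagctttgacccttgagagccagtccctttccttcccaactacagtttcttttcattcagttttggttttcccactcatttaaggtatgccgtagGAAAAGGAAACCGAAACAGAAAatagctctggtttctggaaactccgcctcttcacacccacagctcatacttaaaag
Gbp3: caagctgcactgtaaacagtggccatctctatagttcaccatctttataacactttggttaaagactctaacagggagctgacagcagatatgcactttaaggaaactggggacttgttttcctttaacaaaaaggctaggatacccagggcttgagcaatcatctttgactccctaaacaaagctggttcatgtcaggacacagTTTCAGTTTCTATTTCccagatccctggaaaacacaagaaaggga
Ifit3 and this Gbp3 promoter hold 2 matches each and Isg15 holds 3, some of which overlap. A match describes the sequence and no binding was measured.

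Among genes that respond to loss of nerve input, more rose than fell in SCI+CDTX. Of 28 denervation and junction genes, 7 rose and 4 fell, beside 12.5% and 12.1% of all genes, at a median of 0.50. The count of falls lay near the share over all genes. Ankrd1, a stress-responsive ankyrin protein of the sarcomere and nucleus, was 11.26, 11.17 and 11.16 against 9.77, 9.50, 9.66 and 9.72 at its brighter probe and 10.55, 10.34 and 10.05 against 8.50, 8.53, 8.48 and 8.65 at the other. It rose by 1.54 and 1.78, and SCI+CDTX 2 read 11.65 and 11.11, above all of them. In saline muscle Ankrd1 rose by 5.88 and 6.21, from a sham level of 6.36 at the brighter probe, and the effects differed (adjusted p = 1.91e-06 and 8.78e-08). Krt18, a keratin, was 8.21, 7.39 and 7.02 against 4.95, 4.54, 4.45 and 4.67, a rise of 2.89, with SCI+CDTX 2 at 8.21. Its rise in saline muscle was 5.14.

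The acetylcholine receptor subunit Chrna1, which spreads over denervated fibres, rose at all 3 probes, by 0.62, 1.41 and 0.54, against 2.35, 1.48 and 2.24 in saline muscle. The first and the last of these probes have 49 bases in common and count as 1 reading, and SCI+CDTX 2 lay within the sham range at them. At the remaining probe the effects in CDTX and saline muscle were not called different (-0.07, adjusted p = 0.85). Chrna9, another acetylcholine receptor subunit, rose by 1.34 and by 4.40 in saline muscle. Hdac4, a deacetylase of the denervation response, rose by 1.10, Sln, an inhibitor of the calcium pump, by 1.60, and the synaptic organizer Agrn by 0.92. Agrn was the 1 of the 7 that did not rise in saline muscle, where it was called lower (-1.17).

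Mettl21c, a protein methyltransferase of muscle, had the deepest fall. It was 4.79, 4.82 and 5.32 in SCI+CDTX and 8.97, 9.09, 8.98 and 9.34 in Sham+CDTX, a difference of -4.12 ± 0.17 (SE, adjusted p = 1.42e-11), with SCI+CDTX 2 at 5.51. In saline muscle the difference was -3.43. Nrep, a small neuronal protein, was 9.51, 9.55 and 9.48 against 11.64, 11.64, 11.77 and 11.69 and fell by 2.17, with SCI+CDTX 2 at 9.41. Ache, acetylcholinesterase, fell by 1.10, and Lynx1, a modulator of nicotinic receptors, fell by 1.10 at its brighter probe and was at least 1.54-fold lower at the other, where no SCI+CDTX array detected it.

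Atrophy genes rose in 10 of 25 cases and fell in 1, beside 12.5% and 12.1% of all genes, at a median of 0.57. All 10 also rose in saline muscle, and SCI+CDTX 2 lay above the sham arrays for all 10. Fbxo32, the ubiquitin ligase atrogin-1, was read by 3 probes. At the brightest it was 9.84, 9.02 and 8.90 against 7.08, 7.78, 7.87 and 7.59, a rise of 1.68 ± 0.26 (SE, adjusted p = 9.39e-05), and SCI+CDTX 2 read 10.20. The other probes rose by 2.08 and 0.93. Fbxo31, another F-box protein, rose by 2.08 and 1.23, and Trim63, the ligase MuRF1, by 0.94. The translation inhibitor Eif4ebp1 rose by 1.84, the mTOR inhibitor Ddit4 by 1.29, the metallothioneins Mt2 and Mt1 by 2.03 and 1.34, and the proteasome subunits Psmd8 and Psmc4 by 1.37 and 1.31. Sesn1, a stress-induced regulator of mTOR, fell at both probes (-1.04 and -0.50).

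Glucocorticoid response genes rose in 11 of 26 cases and fell in 1, beside 12.5% and 12.1% of all genes, at a median of 0.52. These lists overlap, since Fbxo32, Trim63, Ddit4, Mt1, Mt2 and Lcn2 are in more than one of them. Beyond these, the lipase inhibitor Angptl4 rose by 1.37, the NF-kappaB inhibitor Nfkbia by 1.2, glutamine synthetase Glul by 0.80, the co-chaperone Fkbp5 by 0.67 and Errfi1, an inhibitor of the EGF receptor, by 0.55. The transcription factor Klf9, itself a glucocorticoid target, fell by 1.41, and SCI+CDTX 2 read 10.34, among the sham arrays. SCI+CDTX 2 lay above the sham arrays for all 11 that rose, 10 of the 11 also rose in saline muscle, and 5 were called with the score in the model.

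Contractile genes fell in 11 of 37 cases and rose in 1, beside 12.1% and 12.5% of all genes, at a median of -0.25. Tpm2, a tropomyosin, fell at all 3 probes but by unequal amounts. At one it was 6.98, 6.45 and 6.56 against 9.16, 9.30, 9.12 and 9.11 (-2.51). At the brightest it was 13.67, 13.10 and 13.56 against 13.90, 14.00, 13.86 and 13.96 (-0.49), which was not called without SCI+CDTX 3. Actc1, the cardiac and fetal actin, fell at both probes (-1.86 and -1.30), as did the oxygen store myoglobin, Mb (-0.71 and -0.95). Myl2, a slow light chain (-2.16), Myoz1, a Z-disc protein (-1.62), and the fast myosin Myh2 (-1.54) fell at their single kept probes. Myl2 and Mb changed sign with the score in the model (0.23 and 0.59). The intermediate filament gene Des rose by 0.47. For 3 of the 11 that fell, SCI+CDTX 2 lay below the sham arrays at each probe, and none of the 11 was called with the score. The muscle fibre markers Acta1 (0.09), Ckm (0.21), Tnnt3 (0.14) and Myh4 (-0.27) were not called.

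Respiratory chain genes fell in 17 of 36 cases and rose in 1, beside 12.1% and 12.5% of all genes, at a median of -0.48. Cox6c, a subunit of cytochrome c oxidase, was 11.47, 11.16 and 11.62 against 13.46, 13.22, 13.04 and 13.25, a difference of -1.83, and SCI+CDTX 2 read 13.63, above the sham arrays. Ndufb9, of complex I, fell by 1.18, with SCI+CDTX 2 at 11.51, above all 4 sham arrays (10.59 to 11.06). Cox7b (-1.16), Ndufa1 (-1.11) and Cox7a1 (-1.14) fell as well, as did cytochrome c, Cycs, at both probes (-1.06 and -0.53). Cox7b was not called without SCI+CDTX 3, nor Cycs without SCI+CDTX 1, SCI+CDTX 3, Sham+CDTX 1 or Sham+CDTX 4. In contrast, Ndufv1 rose by 0.64. SCI+CDTX 2 lay below the sham arrays for 8 of the 17 that fell, near the 45.5% of all called probes. None of the 17 was called with the score in the model, where Cox6c, Ndufb9, Cox7b and Cycs turned positive (0.91, 0.65, 1.12 and 0.86).

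Glycolysis and glycogen genes fell in 5 of 27 cases and rose in 1, beside 12.1% and 12.5% of all genes, at a median of -0.17. Phkg1, a subunit of phosphorylase kinase (-1.74), the muscle enolase Eno3 (-1.11) and lactate dehydrogenase Ldha (-0.92) fell, while the glucose transporter Slc2a1 rose by 1.22 with SCI+CDTX 2 (7.28) in the sham range. Fatty acid oxidation and AMPK genes fell in 6 of 26 cases and rose in 1, beside the same shares of all genes, at a median of -0.30. Perm1, a muscle regulator of mitochondrial genes, was 7.74, 6.59 and 7.56 against 8.98, 9.79, 9.78 and 9.84 and fell by 2.30, and the coactivator Ppargc1b fell by 2.27. Both also fell in saline muscle (-3.29 and -1.36). The AMPK subunits Prkab2 (-1.08) and Prkag3 (-0.74 and -0.82) fell, and Prkag3 was not called without SCI+CDTX 3.

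Genes of muscle precursors and regeneration had 4 of 24 higher and 3 lower, at a median of 0.03, near the share over all genes (12.5% higher and 12.1% lower). Mef2c, a transcription factor of differentiating muscle that vessels and leukocytes also express, fell at 3 probes. At the brightest it was 8.57, 7.30 and 8.12 against 9.45, 9.85, 10.60 and 10.11, a difference of -2.01, and at the others the differences were -2.51 and -2.93. SCI+CDTX 2 read 10.06, 8.11 and 9.28 at these probes, within the sham range each time. Myf6, a myogenic factor of differentiated fibres, was 11.32, 10.59 and 10.73 against 9.98, 10.06, 9.73 and 10.05 and rose by 0.92, with SCI+CDTX 2 higher still at 12.19. Notch1 rose by 1.03 and Notch3, a receptor of satellite cells and vessel walls, fell by 1.13. Myod1, the commitment factor of myoblasts, differed by -0.07 (adjusted p = 0.88), and Myog, which follows it, was called higher at 1 of 2 probes (1.23 and 0.50).

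Fibroadipogenic progenitor genes had 2 of 26 higher and 5 lower, at a median of -0.33, and 4 of 17 collagen chains fell, at a median of -0.15. Over all genes 12.5% rose and 12.1% fell. Col1a1, the main chain of type I collagen, was 9.56, 10.30 and 9.43 against 11.54, 11.47, 11.99 and 11.67 and fell by 1.9. Col3a1 fell at both probes (-0.68 and -1.03), and was not called without any 1 of SCI+CDTX 1, SCI+CDTX 3, Sham+CDTX 1 or Sham+CDTX 2. Col15a1 (-0.87), Col4a1 (-0.60) and Timp2, a protease inhibitor (-1.18), fell, though Col4a1 was not called without SCI+CDTX 1, SCI+CDTX 4 or Sham+CDTX 3. The progenitor gene Pi16 rose by 1.30, while SCI+CDTX 2 read 6.89, within the sham range, and it was called lower in saline muscle (-1.26). Pdgfra, the receptor that marks these progenitors, differed by -0.40 (adjusted p = 0.169).

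The BMP and TGF-beta pathway, which drives bone formation and scarring, had 4 of 37 genes higher and 4 lower, at a median of 0.13. Neither count stood above the share over all genes (12.5% higher and 12.1% lower). Of the ligands, Gdf15 was 5.5, 5.64 and 5.4 against 6.65, 6.52, 6.74 and 6.68 and fell by 1.13, with SCI+CDTX 2 at 5.58. It was the 1 gene of the list called with the score in the model. Bmp4 (-0.67) and Tgfb2 (-0.76) fell as well. Of the antagonists, Chrd rose by 1.41 and Nbl1 by 0.45, and the secreted Fstl1 fell by 1.07. The signal transducer Smad3 rose by 1.45 and the target Id1 by 1.49. Bmp1, a protease that activates chordin-bound BMPs and trims procollagen, was higher at 1 of 4 probes (2.15), with -0.07 to 0.24 at the others. Osteochondral genes showed 1 lower of 16, at a median of 0.03. That gene was Tnfrsf11b, the decoy receptor osteoprotegerin (-0.61). Sox9, which starts cartilage, differed by -0.05 (adjusted p = 0.899).

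Endothelial genes rose in 8 of 26 cases and fell in 2, beside 12.5% and 12.1% of all genes, at a median of 0.28. None of the 8 rose in saline muscle. Cldn5, a tight junction protein, was 8.86, 9.36 and 9.01 against 7.01, 6.77, 6.65 and 6.90, a rise of 2.24, and SCI+CDTX 2 read 7.46. Icam2 rose by 1.34 and Vwf, the platelet-binding factor, by 1.30, while SCI+CDTX 2 was below the sham arrays for both (6.39 and 6.86). Pecam1 was higher at both probes (0.45 and 0.59), and was not called without SCI+CDTX 1 or 3 or without Sham+CDTX 1, 3 or 4. Vegfb (-1.04) and Flt1 (-0.69), a growth factor and a receptor of this system, fell. None of the 10 was called with the score in the model.

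Of the other lists, Schwann cell and nerve genes had 2 of 14 higher, Egr2, a transcription factor of the myelinating Schwann cell programme (1.22), and Uchl1, a ubiquitin hydrolase abundant in neurons (0.92), and 1 lower. Cell cycle genes had 3 of 30 higher and 1 lower, led by the licensing factor Cdt1 (1.22) and Plk1, a mitotic kinase (1.01), for which SCI+CDTX 2 did not lie above the sham arrays. Gap43, a protein of growing axons that was the nerve gene to fall (-0.46), was not called without SCI+CDTX 1 or 4, without Sham+CDTX 1, 2 or 3, without background correction (-0.12) or with SCI+CDTX 2 added (-0.39). Circadian clock genes had 1 of 14 lower, the repressor Nr1d1 (-1.02). Matrix proteases and inhibitors had 3 of 22 higher, Adam8 (0.79 and 0.94, at probes that share 28 bases), Adam12 (0.72) and Plaur (0.55), and 1 lower. Adam12 was not called without SCI+CDTX 3, nor Plaur or Plk1 without SCI+CDTX 3 or 4 or without Sham+CDTX 2 or 3, nor Plk1 without Sham+CDTX 4. Among 6 red blood cell genes the smallest adjusted p was 0.115, for the globin Hbb-b1 (0.79). The bar chart of gene lists sets these counts side by side, and 12.5% of all genes rose and 12.1% fell by the same rule.

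**Figure D5:**
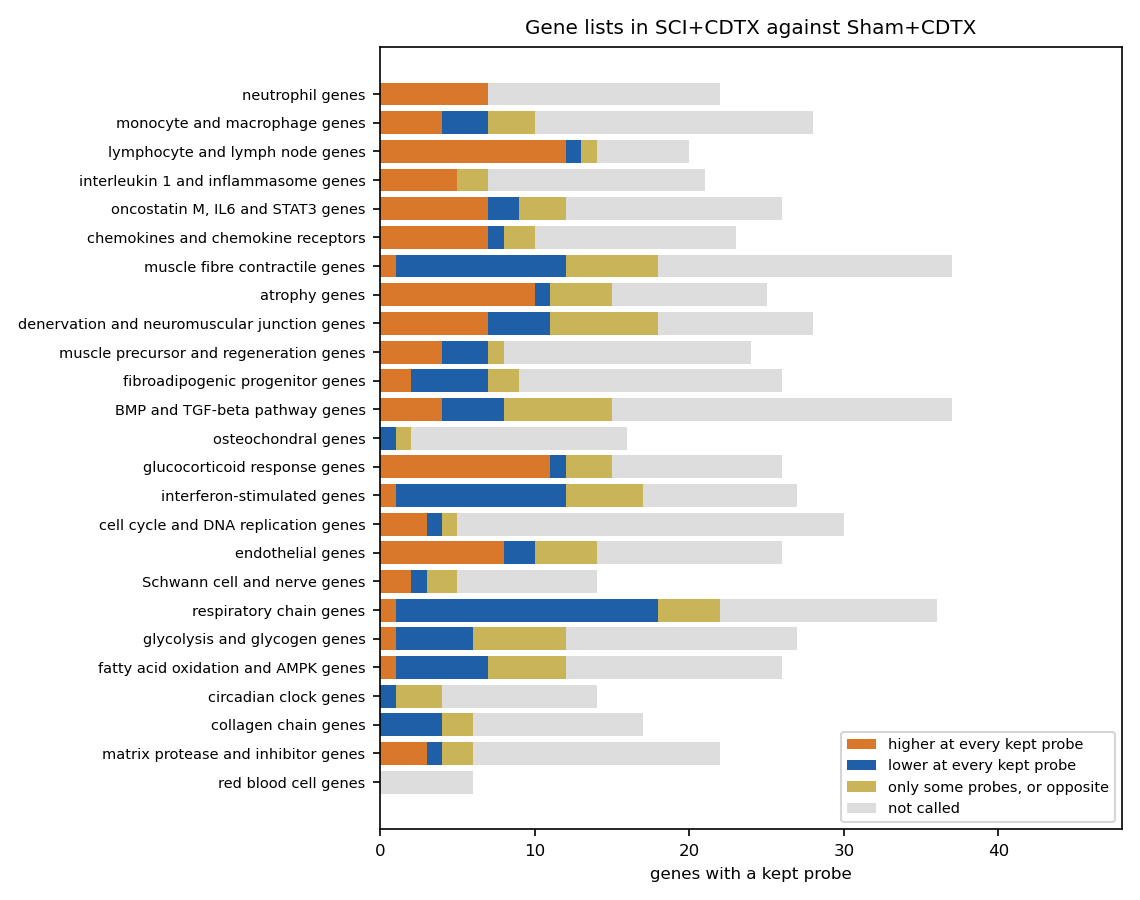
Number of genes with a kept probe in each gene list (horizontal axis), split by whether each kept probe was called higher or lower in SCI+CDTX, whether only some were called or calls were opposite, or none was called. Lymphocyte genes had 12 of 20 higher and atrophy genes 10 of 25, and interferon-stimulated genes had 11 of 27 lower and respiratory chain genes 17 of 36. Over all genes 12.5% rose and 12.1% fell by the same rule.

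Outside these lists, genes whose probes agreed and whose groups did not overlap at any probe were led on the higher side by Sema3f, a repulsive guidance signal for axons and vessels. It was 7.81, 8.31 and 8.15 against 5.63, 5.75, 5.55 and 5.63 at the brighter of its probes, which have 48 bases in common and count as 1 reading. Mustn1, a small nuclear protein of muscle and skeletal tissue, was 13.01, 12.96 and 12.93 against 11.64, 10.72, 11.16 and 10.92 at one probe and 12.88, 12.67 and 12.82 against 10.73, 10.38, 10.89 and 10.58 at the other. Its rises of 1.85 and 2.14 were about those in saline muscle (2.48 and 2.36), and SCI+CDTX 2 read 12.73 and 12.59, with the SCI arrays. Dusp13, a muscle phosphatase, rose by 2.05 and 1.39 and Tekt1, a protein of cilia, by 1.71 and 1.54, and both likewise rose in saline muscle and were high in SCI+CDTX 2. The acute-phase protein haptoglobin, Hp, rose at 3 probes (1.51, 1.88 and 2.10), with SCI+CDTX 2 just above the sham arrays. The last 2 of these Hp probes share 41 bases. Srgn, a proteoglycan of leukocyte granules, rose by 1.56 and 2.28, the kinase gene Mast2 by 1.64 at both probes and the synuclein Sncg by 1.51 and 1.33. For Sncg, SCI+CDTX 2 read 5.95 at the first probe, above the sham arrays, and 7.32 at the brighter one, within their range. Por, the reductase of cytochrome P450, rose by 1.67 and 1.42 at probes that share 30 bases, and turned to -0.16 with the score in the model.

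On the lower side stood Mlf1, a myeloid leukaemia factor that muscle also makes, at 10.13, 8.90 and 9.70 against 12.39, 12.74, 12.59 and 12.45 at the brighter probe. It fell (-2.85 and -2.96), but SCI+CDTX 2 read 10.26 and 11.96, only just below the sham arrays. Dusp10, a phosphatase of stress kinases, fell (-2.82 and -2.97), and SCI+CDTX 2 (6.92 at both) lay between the groups. Hoxc10, a homeobox gene of hindlimb position, was 7.28, 6.49 and 6.51 against 9.03, 8.99, 9.04 and 9.01, and 7.0, 6.30 and 6.55 against 8.85, 8.97, 8.71 and 9.12. It fell (-2.26 and -2.29) and yet SCI+CDTX 2 read 9.12 and 9.06, at the sham level. Nfic, a nuclear factor, fell at 3 probes, again with SCI+CDTX 2 within or above the sham range. The differences were -2.02 and -1.54 at 2 of them, and at the other it was not detected in SCI+CDTX and was at least 2.71-fold lower. The galectin Lgals9 (-1.96 and -1.50), the phosphatase Ppm1l (-1.46 and -1.48) and the clathrin adaptor subunit Ap2a1 (-1.51 and -1.50) fell at both probes. For Ap2a1, SCI+CDTX 2 read 7.71, just below the sham arrays (7.78 to 8.13), and 7.53, within their range (6.89 to 7.66). With the score in the model Ap2a1 differed by -0.35 and 0.08 and was not called.

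Among genes with a single kept probe that were also called with the score in the model, Scx, a transcription factor of tendon, was 9.29, 9.25 and 9.31 against 6.84, 6.47, 6.94 and 6.62, a rise of 2.56 ± 0.17 (SE, adjusted p = 1.1e-08). SCI+CDTX 2 read 8.85, and Scx rose by 3.02 in saline muscle. On the lower side were Hhatl (-2.27), Map3k7cl (-2.13), the sodium channel subunit Scn4b (-1.95) and the axonal adhesion protein Cntnap2 (-1.94). All 4 also fell in saline muscle (-1.85, -1.44, -2.57 and -2.03). Mylk2, the myosin light chain kinase of skeletal muscle, was 5.13, 4.43 and 4.90 against 4.25, 4.60, 4.81 and 4.82 and was not called (0.20, adjusted p = 0.625).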

How the data were processed

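Mouse hamstring RNA was read on 16 Illumina arrays, of which the comparison used 7. Mean bead intensity was deposited for 25697 probes without normalization or background subtraction, per the file headers, and a detection p-value per probe and array in the same deposited file. GenomeStudio version 2011.1 is named in the submitters' processing notes. The p-value of Sham+CDTX against SCI+CDTX that the authors deposited served as an alternative. Unused per-sample columns number 0.

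For the main result, SCI+CDTX 2 was left out, and intensities of 15 arrays were corrected for background with the detection p-values and quantile normalized (neqc, offset 16), which understates differences of dim probes. A probe was kept if 3 or more arrays had a detection p under 0.05 for it. One model of the 4 group means was fitted with limma 3.58.1 (R 4.3.3, data.table version 1.17.8), with Benjamini-Hochberg adjustment over all 14763 kept probes. Symbols were updated through Entrez identifiers for 23681 probes, of which 4172 changed. SCI+CDTX 2 was read in a normalization over all 16 arrays. The script was tested on simulated data. For a probe undetected throughout a group, the fold is given as a bound. It sets the mean of the bright group against the dim group's mean, in which each array takes its lowest detected signal or the probe's own, whichever is higher.

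Genes were named by rule: the 10 highest and 10 lowest among genes with several kept probes, all called the same way with groups not overlapping, ranked by their smallest difference; among single-probe genes also called with the score as covariate, the 6 highest and 6 lowest; up to 4 per list of those called at each kept probe, several-probe genes first; and Osm, Il1b, S100a8, S100a9, Glycam1, Mettl21c, Mylk2 and Actb. One further gene is not reported here and was taken out of its list. Further list members and cell type markers are named for context. The comparison, the 25 gene lists and the rules were chosen with earlier results of these data known. Alternatives covered the arrays used, normalization, background correction, the detection filter, the variance model, the score, a replicate block, each array left out, and probes that share sequence. The last was added after seeing the data.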

Additional observations from a re-analysis of the deposited data

Results flagged for a closer look

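The effect of SCI was compared between CDTX and saline muscle by a test of the difference itself (limma, Benjamini-Hochberg adjusted p under 0.05), which called 3483 of all kept probes (23.6%). Values below are the effect in CDTX muscle minus that in saline muscle in log2 units, at the brightest kept probe of each of 60 named genes that passed. The probe difference score differed between the surgery groups in CDTX muscle and not in saline muscle, and its part in these differences was not tested.

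Genes with a wider rise in CDTX muscle than in saline muscle were Glycam1 (5.93), Il1b (2.66), Sema3f (2.26), Il1rn (1.97), Hp (1.45), Cd163 (1.40), Chrd (1.39), Cxcl13 (1.32), Ccl19 (1.32), Cd14 (1.14), Il1r2 (0.98), Smad3 (0.97), Osm (0.97), Adam8 (0.87), Por (0.87) and Myd88 (0.72). A deeper fall in CDTX muscle was measured for Ifit2 (-2.02), Mlf1 (-1.89), Lgals9 (-1.70), Mef2c (-1.70), Hoxc10 (-1.63), Nfic (-1.33), Dusp10 (-1.20), Timp2 (-0.90), Ppargc1b (-0.90), Mettl21c (-0.69) and Map3k7cl (-0.68).

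The effect had the same sign but was smaller in CDTX muscle for the higher genes Ankrd1 (-4.34), Slpi (-2.47), Krt18 (-2.26), Chrna1 (-1.73), Mt2 (-1.32), Myf6 (-1.31), Pcna (-0.86) and Tekt1 (-0.82), and for the lower genes Lynx1 (1.86) and Nrep (0.98). At the Chrna1 probe that shares no run of sequence with the others, the difference was -0.07 (adjusted p = 0.85 by limma).

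Estimates pointed in opposite directions, with the higher one in CDTX muscle, for Fcmr (3.23), Cldn5 (2.88), Pi16 (2.56), Vwf (2.44), Lrg1 (2.17), Mast2 (2.05), Icam2 (2.01), Socs3 (2.00), Slc2a1 (1.80), Sncg (1.74), Notch1 (1.38), Egr2 (1.29), Pecam1 (1.16) and Adam12 (0.79). The reverse held for Cox6c (-2.25), Cox7b (-2.18), Cx3cr1 (-1.94), Cxcr4 (-1.80), Ndufb9 (-1.64), Gdf15 (-1.60), Ap2a1 (-1.55), Cycs (-1.31) and Gap43 (-0.57). In saline muscle Pi16, Cldn5 and Pecam1 were called lower at these probes and Gdf15 higher. Among those not called there were Fcmr (-0.23), Lrg1 (-0.38), Mast2 (-0.41), Socs3 (-0.097), Sncg (-0.42), Notch1 (-0.35), Cx3cr1 (0.18), Cxcr4 (0.36) and Ap2a1 (0.04). The direction of an uncalled gene in saline muscle is open. Cycs had a second probe at which the difference was 0.77 (adjusted p = 0.0118 by limma) and both muscles had lower values with SCI (-0.53 and -1.30). The values of Glycam1 and Fcmr, undetected in Sham+CDTX, are fitted values and no bounds.

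Single arrays stood apart in 13 of 223 groups of 4 arrays, where the gap from the highest or lowest array to the next, over the whole range, passed the 95% critical value of Dixon. That value is set so that chance passes about 1 in 20 groups. SCI+CDTX 2 was the one apart for the probe difference score (0.28 against -0.119 to -0.0673 in its group), Ndufb9 (11.51 against at most 9.81), Vwf (6.86 against at least 8.55), Slc2a1 (7.28 against at least 8.36), Ap2a1 (7.71), Socs2 (8.28) and Scx (8.85 against at least 9.29). In Sham+CDTX, array 3 was low for Pi16 (6.67), array 1 was high for Slpi (9.31) and low for Perm1 (8.98), array 4 was high for Hp (9.84) and low for Oasl2 (9.88), and array 2 was low for Cd79b (4.55).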

How the results depend on the processing

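The count of called probes, 4393, ranged from 3192 to 4088 when 1 array was left out, and from 3939 to 6309 over the other settings except 2. With all 16 arrays it was 2613, and with the probe difference score as covariate it was 262, of which 70.2% were higher against 49.9%. Per the authors' deposited table, 4187 kept probes had a difference p under 0.05, and 3845 of these were also called by limma in the same direction and 0 in the opposite one.

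The count of genes called at each of several probes, 257, was 138 with all 16 arrays, 421 with array weights, 174 with no detection filter, 21 with the score (76.2% higher against 37.4%), and 199 among genes with at least 2 probes that share no run of 15 bases. Leaving out 1 array gave 170, without SCI+CDTX 4, to 234. The score turned the sign of Por (-0.16), Hoxc10 (0.30), Mef2c (0.31), Nfic (0.092), Myd88 (-0.60), Mb (0.59), Myl2 (0.23), Pi16 (-0.35), Chrd (-0.14), Klf9 (0.42), Cdt1 (-0.17), Plk1 (-1.20), Icam2 (-0.43), Vwf (-0.83), Cycs (0.86), Cox6c (0.91), Ndufb9 (0.65), Cox7b (1.12), Prkab2 (0.15), Col4a1 (0.013), Adam8 (-0.41), Plaur (-0.64), Osm (-0.080), Mylk2 (-0.52) and Actb (-0.042). Median scaling turned Actb (-0.037). The cause of these changes was not tested. Of the 111 named genes, 85 kept direction and call with all 16 arrays, 29 with the score, and 98 to 107 with 1 array left out. The 26 no longer called with all 16 arrays included Fpr2, Hdc, Arg1, Cd79b, Myd88, Mb, Tpm2, Col3a1, Klf9, Cdt1, Plk1, Pecam1 and Vwf. The rest of these were Gap43, Cycs, Cox6c, Ndufb9, Cox7b, Prkag3, Prkab2, Nr1d1, Col4a1, Adam8, Adam12, Plaur and Osm. S100a8 and S100a9 were also called with array weights (3.06 and 3.20), S100a8 with the stricter detection filter (3.31) and S100a9 with the replicate block (3.08).

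Same-numbered arrays of both groups deviated with correlations of -0.271, 0.138 and -0.025, within the span of differently numbered ones (-0.275 to 0.273). These values are few and depend on each other, so they cannot show whether the replicate numbers pair the samples. With the replicate number as a block, 4034 probes and 235 genes with several probes were called.

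The small number of arrays limits precision, differences of dim probes are understated, surgery cannot be told apart from slide, and nothing here separates RNA per cell from cell number.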

Other observations

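Of the genes called at each of several probes with and without the score, 4 lie outside the naming rule and were chosen after their values were seen. Srxn1, a sulfiredoxin that repairs oxidised peroxiredoxins, rose at 3 probes by 0.86, 1.30 and 1.72 and by 1.61, 2.64 and 2.60 in saline muscle. At the same probes SCI+CDTX 2 read 8.55, 8.07 and 8.72, above the highest sham level each time (7.57, 5.74 and 6.45). Tmem38b, a potassium channel of the sarcoplasmic reticulum, rose by 0.75 and 1.13. Slc41a3, a magnesium carrier, fell by 0.86 and 1.83, and by 1.70 and 1.67 in saline muscle. Syngr1, a vesicle membrane protein, fell by 1.22 and 1.33, with SCI+CDTX 2 (6.01 and 7.11) below the sham arrays at both probes.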
